A study of Mus musculus with 16 samples.

Results

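The genes of the collagen chains were followed through myofibers of a fast hindlimb muscle, the extensor digitorum longus (EDL), of running and sedentary mice. Members were all genes of the deposited tables whose symbol is Col, a type number, a and a chain number, without use of any measured value. There were 39 such genes among the 23222 genes with at least 1 read, out of 44 symbols of that form in the GENCODE M21 annotation. By structure, 9 encode fibrillar chains, 6 the type IV chains of basement membranes and 24 other chains, among them 8 fibril-associated and 5 beaded microfibril chains.

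The 16 libraries came from male C57BL/6 mice and fell into 4 groups of 4. Old runners were 22 months old and had used running wheels at will for 5 weeks, and old controls were 22 months old without that treatment. Young runners were 4 months old and had the same 5 weeks of wheel access, and young controls were 4 months old without it. No transgene or drug was named for any group. RNA was taken from isolated fibres after adhering mononucleated cells had been stripped off, so the myofiber itself, a long multinucleated muscle cell, was the intended source. Whether each library came from its own mouse is not said in the labels, so p-values measure the spread between these libraries, which may be technical.

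Collagens are secreted proteins of 3 polypeptide chains wound into a triple helix. Fibrillar types I, III and V form the cables of the interstitial matrix around and between muscle fibres, and are made mainly by interstitial fibroblasts. Type IV chains form the network of basement membranes, including the sheath that wraps each myofiber and the one under the endothelium of capillaries. Other types decorate fibrils, anchor membranes or sit at tendon and nerve junctions.

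Libraries held 30.7 M to 67.4 M reads assigned to genes (M, 1e6 reads), with a median of 46.9 M, and 12694 to 17565 genes with a read. The summed level of 6 myofibre markers, among them skeletal actin and creatine kinase, was 105000 to 165000 RPM (reads per M assigned reads), so the labelled cell type led every library. Markers of other cells were present at far lower levels. The 12 fibro-adipogenic markers, of which Dpp4 had no read and the other 11 did, summed to 71.9 to 129 RPM in old runners, against 22.2 to 85.9 in old controls. The same sum was 117 to 303 in young runners, against 30.4 to 57.8 in young controls. The 10 endothelial markers summed to 22.1 to 98.6 in old runners, against 13.7 to 116 in old controls, and to 25.1 to 126 in young runners, against 7.38 to 22.5 in young controls. The 8 mural cell markers summed to 103 to 279 in old runners, against 33.7 to 202 in old controls, and to 144 to 317 in young runners, against 55.8 to 197 in young controls. The channel subunit gene Abcc9 made up 86.1% of the mural sum over all libraries, and the other 7 markers summed to 14.3 to 74.3 in old runners, against 6.16 to 39.7 in old controls, and to 15.3 to 66.8 in young runners, against 1.45 to 12.4 in young controls, where they did not overlap. Adipocyte markers were at 0 in most libraries, with Adipoq, Plin1, Lep and Retn at 0 in all and a highest sum of 0.349 RPM. Fibro-adipogenic, endothelial and mural cells are known collagen producers. Their part in the results below was not tested, and in bulk RNA fewer cells of a type and less RNA per cell cannot be told apart.

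Collagen transcripts were scarce and uneven. All 39 chains together made up 37.0, 68.6, 117 and 75.3 RPM in the old runner libraries, against 83.9, 34.5, 46.8 and 33.0 in old controls. They made up 220, 109, 70.6 and 128 RPM in young runners, against 21.7, 72.6, 89.9 and 70.3 in young controls. Here and below, the libraries of a group stand in the order of their names in the plot of all chains. The collagen total of the groups overlapped at both ages. Only 4 chains had a read in all 16 libraries, namely Col4a1, Col4a2, Col5a1 and Col22a1. A further 8 chains had reads in fewer than 4 libraries, and 10 had fewer than 100 reads in all libraries together. A single read was worth 0.0148 to 0.0326 RPM, and a count of 0 allows up to 0.0445 to 0.0977 RPM at these depths, limits that cover counting error only.

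**Figure D1:**
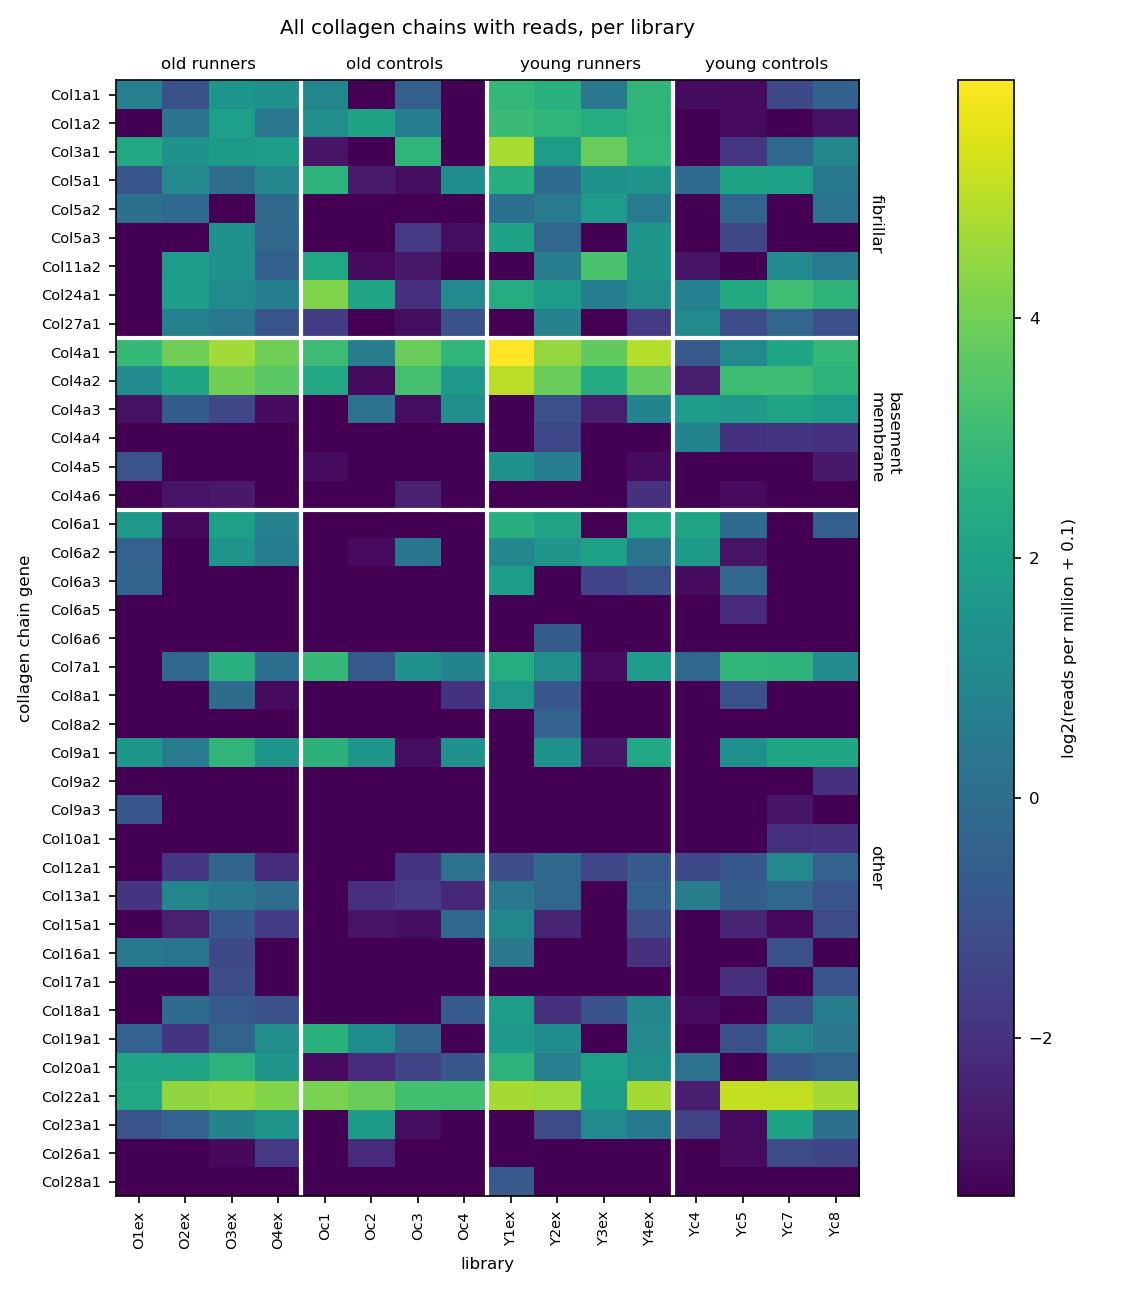
Level of each of the 39 collagen chains (rows, by class) in each library (columns, by group), as log2 of RPM plus 0.1 in colour. Dark cells are chains with no read or few reads, which are frequent among the other chains in the lower rows. Col4a1, Col4a2 and Col22a1 are bright in nearly every library.

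The order of the chains per kilobase of exon differed between groups. In old runners Col4a1 stood at 2.14 ± 0.997 reads per kilobase per M reads, ahead of Col22a1 at 1.87 ± 0.932 and Col4a2 at 1.3 ± 0.975 (SD, n = 4). In old controls Col22a1 stood at 1.34 ± 0.457, ahead of Col4a1 at 1.02 ± 0.705 and Col24a1 at 0.818 ± 1.11. Young runners had Col4a1 at 4.33 ± 2.89, Col4a2 at 2.48 ± 1.74, Col22a1 at 2.17 ± 1.2 and Col3a1 at 1.32 ± 1.07. In young controls Col22a1 stood at 2.62 ± 1.8, ahead of Col4a2 at 0.878 ± 0.598 and Col24a1 at 0.713 ± 0.389. Neighbours in each of these orders lay within 1 SD of each other, except Col22a1 and Col4a2 in young controls and Col4a1 and Col4a2 in young runners, where the gap exceeded the smaller of the SDs. Col4a1 had the highest mean of all chains in both runner groups, and Col22a1 in both control groups.

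The comparison of runners with controls asks what 5 weeks of running did to fibre RNA, and that of old with young mice asks what age did. Levels are given as RPM, and tests were run by limma on the deposited log2 values of each pair of groups, in which the difference of a gene near the floor is compressed. A chain entered such a test when at least 4 of the 8 libraries were 1 or more above the floor, so a chain could enter through its high group alone. An adjusted p under 0.05 over all genes tested counted as a call.

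Runner and control libraries were apart for some classes and not for others, as the plot of class sums shows. Fibrillar chains summed to 58.3, 25.3, 38.1 and 32.9 RPM in young runners, against 4.58, 10.4, 16.5 and 13.2 in young controls. Every young runner library lay above every young control library. In old mice the fibrillar sums were 7.79, 15.4, 19.2 and 13.2 in runners, against 34.0, 8.25, 9.26 and 4.58 in controls, and the groups overlapped. The log2 ratio of the mean fibrillar sums was 1.79 in young mice and -0.01 in old mice, where it was 0.92 without the control library Oc1, the highest of its group.

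Basement membrane chains summed to 97.9, 39.3, 18.3 and 46.1 RPM in young runners, against 5.71, 13.8, 17.2 and 17.1 in young controls. Again no runner library fell below a control library, although the lowest runner was only just above the highest control. In old mice they summed to 10.0, 20.4, 41.9 and 27.3 in runners, against 13.0, 2.5, 23.7 and 12.2 in controls, with overlap. The log2 ratios of the means were 1.9 in young and 0.95 in old mice. The other chains summed to 63.5, 44.0, 14.2 and 48.9 in young runners, against 11.4, 48.3, 56.2 and 40.0 in young controls, and to 19.3, 32.8, 56.2 and 34.8 in old runners, against 36.8, 23.7, 13.8 and 16.2 in old controls. Their log2 ratios were 0.13 in young and 0.66 in old mice, and the young value was -0.18 without the control library Yc4 and -0.13 without the runner library Y1ex. These sums are a description with no test.

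**Figure D2:**
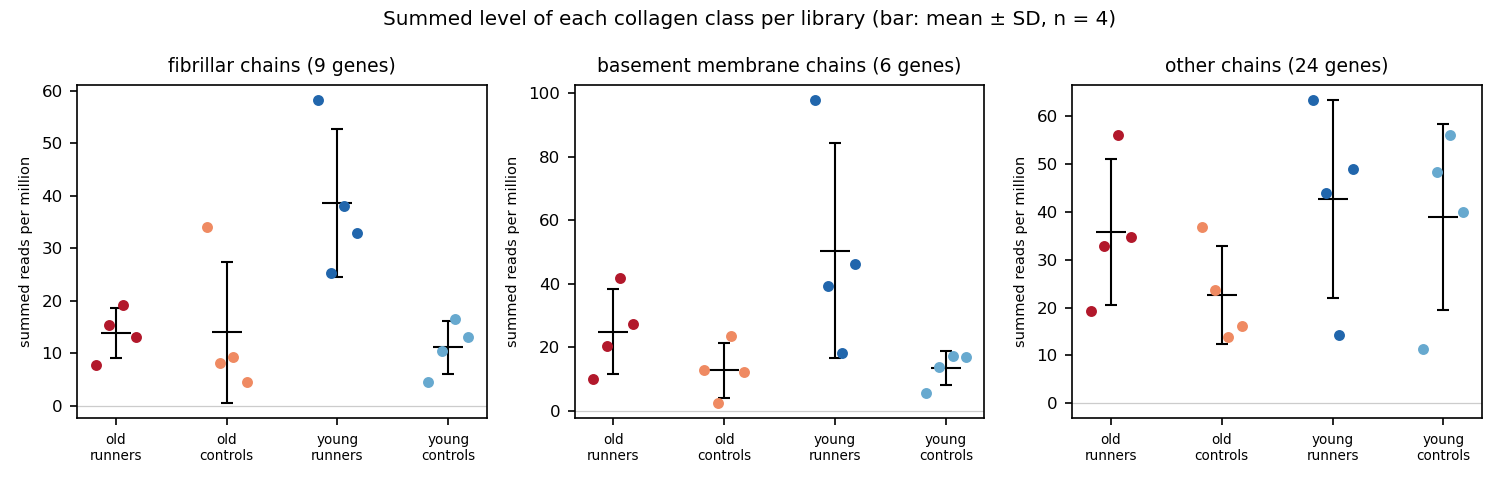
Summed RPM of the fibrillar, basement membrane and other collagen chains in each library, by group, with mean and SD (n = 4). In young mice the runner libraries lie above the control libraries for the fibrillar chains (25.3 to 58.3 against 4.58 to 16.5) and the basement membrane chains, while the other chains overlap.

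Without any filter on low values, 24 of the 32 chains with reads in old mice had a higher mean in old runners than in old controls, or 75.0%, beside 46.3% of all genes with a read. In young mice 23 of 39 chains had the higher mean in runners, or 59.0%, beside 39.0% of all genes. By class these were 7 of 9 fibrillar, 4 of 6 basement membrane and 12 of 24 other chains in young mice, and 6 of 9, 4 of 5 and 14 of 18 in old mice. The means are given without a test.

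Type I collagen, the main tensile fibril, is built of Col1a1 and Col1a2 chains. The change was plainest for Col1a2 in young mice. It had 284, 353, 236 and 310 reads in young runners, against 0, 1, 0 and 2 reads in young controls, or 6.66 ± 1.07 against 0.0144 ± 0.0182 RPM (SD, n = 4). Every young runner library was thus high and every young control library at or next to no reads. The deposited log2 values differed by 2.18 (SE 0.2, limma, adjusted p = 0.0038). This was 1 of 2 chains called in young mice among 16 tested, beside 0.762% of all genes called there, or 0.282% called higher. The call held without any 1 control library, with adjusted p from 0.00514 to 0.0367, and without any 1 runner library Col1a2 fell below the filter and was not tested. In old mice Col1a2 had 0, 71, 196 and 54 reads in runners, against 109, 207, 53 and 0 in controls, which overlap fully.

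Col1a2 lies at chr6:4504814-4541544 on the plus strand (mm10, GENCODE M21). The window around its RefSeq start, chr6:4505368-4505667 in GRCm38.p6, is shown because this chain had the widest separation of young groups. Capitals mark the letters CCAAT or GGGCGG on either strand, of which CCAAT occurs in 37.4% and GGGCGG in 35.7% of the 32851 RefSeq windows of 300 bases from 250 before to 50 after a start. The window has 61.0% G and C, beside a median of 52.7%.
Col1a2: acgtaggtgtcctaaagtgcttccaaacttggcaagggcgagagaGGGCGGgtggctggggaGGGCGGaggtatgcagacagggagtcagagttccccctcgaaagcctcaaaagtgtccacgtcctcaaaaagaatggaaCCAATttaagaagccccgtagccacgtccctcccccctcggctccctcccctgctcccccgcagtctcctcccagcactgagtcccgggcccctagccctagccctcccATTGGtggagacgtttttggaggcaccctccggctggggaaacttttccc

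Its partner Col1a1 had 7.25, 5.86, 1.23 and 6.7 RPM in young runners, against 0.0226, 0.0196, 0.31 and 0.644 in young controls. The groups did not overlap, and the difference of 1.56 (SE 0.31) just missed the threshold (limma, adjusted p = 0.0505). In old mice Col1a1 had 1.56, 0.4, 2.89 and 2.46 in runners, against 1.84, 0, 0.608 and 0 in controls. Here the groups overlapped, with 2 control libraries above the lowest runner and 2 without a read. Per kilobase, the mean of Col1a1 was 1.49 times that of Col1a2 in young runners and 2.36 times in old runners, against 0.596 times in old controls. Young controls had too few Col1a2 reads for a ratio. In old mice some libraries lacked a chain, with 48 Col1a1 and 0 Col1a2 reads in O1ex and 0 and 207 in Oc2. The old ratios are therefore not read as a balance of the chains.

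Col3a1, the type III chain of fine reticular fibrils, had 27.3, 3.39, 14 and 7.02 RPM in young runners, against 0, 0.176, 0.816 and 1.9 in young controls. These groups did not overlap, and the difference was 2.1 (SE 0.44, limma, adjusted p = 0.0611), short of a call. In old runners Col3a1 was even, at 4.79, 2.64, 3.27 and 3.64, against 0.0424, 0, 6.75 and 0 in old controls. A lone old control library, Oc3, exceeded all old runners, while the other three had almost nothing. The difference there was 0.81 (SE 0.33, limma, adjusted p = 0.244).

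Type V collagen regulates the width of type I fibrils and joins Col5a1 with Col5a2. Col5a2 had 0.977, 0.845, 0 and 0.835 RPM in old runners, against no read in any of the 4 old controls. Its mean was 38.2-fold higher when the controls are set at 3 reads over the group. That floor covers counting error and not the spread between libraries, and Col5a2 was below the filter in old mice and not tested there. In young mice Col5a2 had 0.949, 1.33, 3.41 and 1.35 in runners, against 0, 0.724, 0 and 1.06 in controls. The pattern was therefore runners with reads and controls often without, with overlap at both ages. Col5a1 showed no such split. It had 0.456, 1.96, 0.896 and 1.8 in old runners, against 6.38, 0.0581, 0.0276 and 2.2 in old controls, and 5.58, 0.853, 2.6 and 2.72 in young runners, against 0.857, 3.99, 3.8 and 1.27 in young controls.

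The remaining fibrillar chains, Col5a3, Col11a2, Col24a1 and Col27a1, ranged between no read and 18.7 RPM, and none was called. The highest value was that of Col24a1 in the old control library Oc1, at 18.7, which made up more than any other chain of the high fibrillar sum of that library. Col24a1 averaged 1.77 ± 1.46 in old runners, against 6.24 ± 8.46 in old controls, and 3.12 ± 1.63 in young runners, against 5.43 ± 2.96 in young controls (SD, n = 4). Its means were thus lower in runners at both ages, unlike those of types I and III in young mice, but the groups overlapped.

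Col4a1 and Col4a2 together make the type IV heterotrimer found in nearly all basement membranes. Col4a1 had 62.9, 22.6, 13.1 and 30.8 RPM in young runners, against 0.541, 2.03, 4.46 and 7.28 in young controls. All runner libraries lay above all controls, and the mean was 9.04-fold higher. The deposited values differed by 2.34 (SE 0.42, limma, adjusted p = 0.0412), the other call in young mice. It held without the control Yc4 (adjusted p = 0.0362) and missed the threshold without any other single library, with 0.0696, 0.134, 0.0521 and 0.12 without Y1ex, Y2ex, Y3ex and Y4ex and 0.0879, 0.133 and 0.0622 without Yc5, Yc7 and Yc8.

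In old mice Col4a1 had 7.39, 15.5, 25.6 and 15.4 RPM in runners, against 8.18, 1.41, 14.2 and 6.73 in controls. The runners were higher on the whole, with 1 below the 2 highest controls, and the difference of 0.76 (SE 0.3) was not called (limma, adjusted p = 0.228). Col4a2 had 32.5, 14.6, 5.14 and 13.4 in young runners, against 0.0677, 8.45, 8.41 and 6.31 in young controls, a difference of 1.22 (SE 0.52, limma, adjusted p = 0.264). It had 2.15, 4.32, 15.97 and 11.9 in old runners, against 4.83, 0.0194, 9.37 and 3.18 in old controls. Col4a2 overlapped between runners and controls at both ages. Per kilobase, Col4a1 exceeded Col4a2 in 14 of 16 libraries. The exceptions were the young controls Yc5 and Yc7, and the ratio of the means was 1.75 in young runners, against 0.546 in young controls, and 1.65 in old runners, against 1.56 in old controls.

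Both genes lie head to head on chromosome 8, Col4a1 at chr8:11198423-11312826 on the minus strand and Col4a2 at chr8:11312805-11449287 on the plus strand (mm10, GENCODE M21), and their annotated transcripts share 22 bases at the starts. The libraries keep no strand, so reads in the shared bases cannot be told apart. Their start windows (RefSeq, GRCm38.p6) share 78 bases and are shown because the pair is read from a common stretch. Col4a1 spans chr8:11312777-11313076 on the minus strand and Col4a2 chr8:11312555-11312854 on the plus strand, with 74.0% and 73.7% G and C. Capitals mark CCAAT and GGGCGG on either strand. Neither window held TATAAA, which occurs in 13.6% of all windows.
Col4a1: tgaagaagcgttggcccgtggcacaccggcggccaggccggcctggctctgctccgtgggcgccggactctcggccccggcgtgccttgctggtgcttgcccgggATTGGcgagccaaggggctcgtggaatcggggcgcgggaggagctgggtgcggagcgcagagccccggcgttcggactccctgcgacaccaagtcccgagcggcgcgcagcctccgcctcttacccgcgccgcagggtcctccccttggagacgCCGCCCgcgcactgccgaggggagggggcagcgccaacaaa
Col4a2: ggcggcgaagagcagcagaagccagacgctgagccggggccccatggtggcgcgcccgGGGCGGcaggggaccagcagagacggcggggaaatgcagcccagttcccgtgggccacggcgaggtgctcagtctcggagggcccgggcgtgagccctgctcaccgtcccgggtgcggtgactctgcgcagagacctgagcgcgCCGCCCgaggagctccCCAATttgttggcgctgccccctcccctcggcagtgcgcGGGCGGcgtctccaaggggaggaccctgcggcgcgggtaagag

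Col4a3, a chain of the specialised type IV network of kidney and of synaptic basement membrane, had its highest level in young controls. It had 0, 0.379, 0.0673 and 1.74 RPM in young runners, against 3.38, 3.17, 4.21 and 3.32 in young controls. Young controls were the even, high group and did not overlap with young runners, whose mean was 6.44-fold lower. The difference of -1.16 (SE 0.27) was not called (limma, adjusted p = 0.0758). Col4a3 had 0.0326, 0.564, 0.299 and 0.0214 in old runners, against 0, 1.07, 0.0276 and 2.33 in old controls. Of the other type IV chains, Col4a4, Col4a5 and Col4a6 had reads in 5, 6 and 5 libraries and stayed at or below 2.54 RPM.

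**Figure D3:**
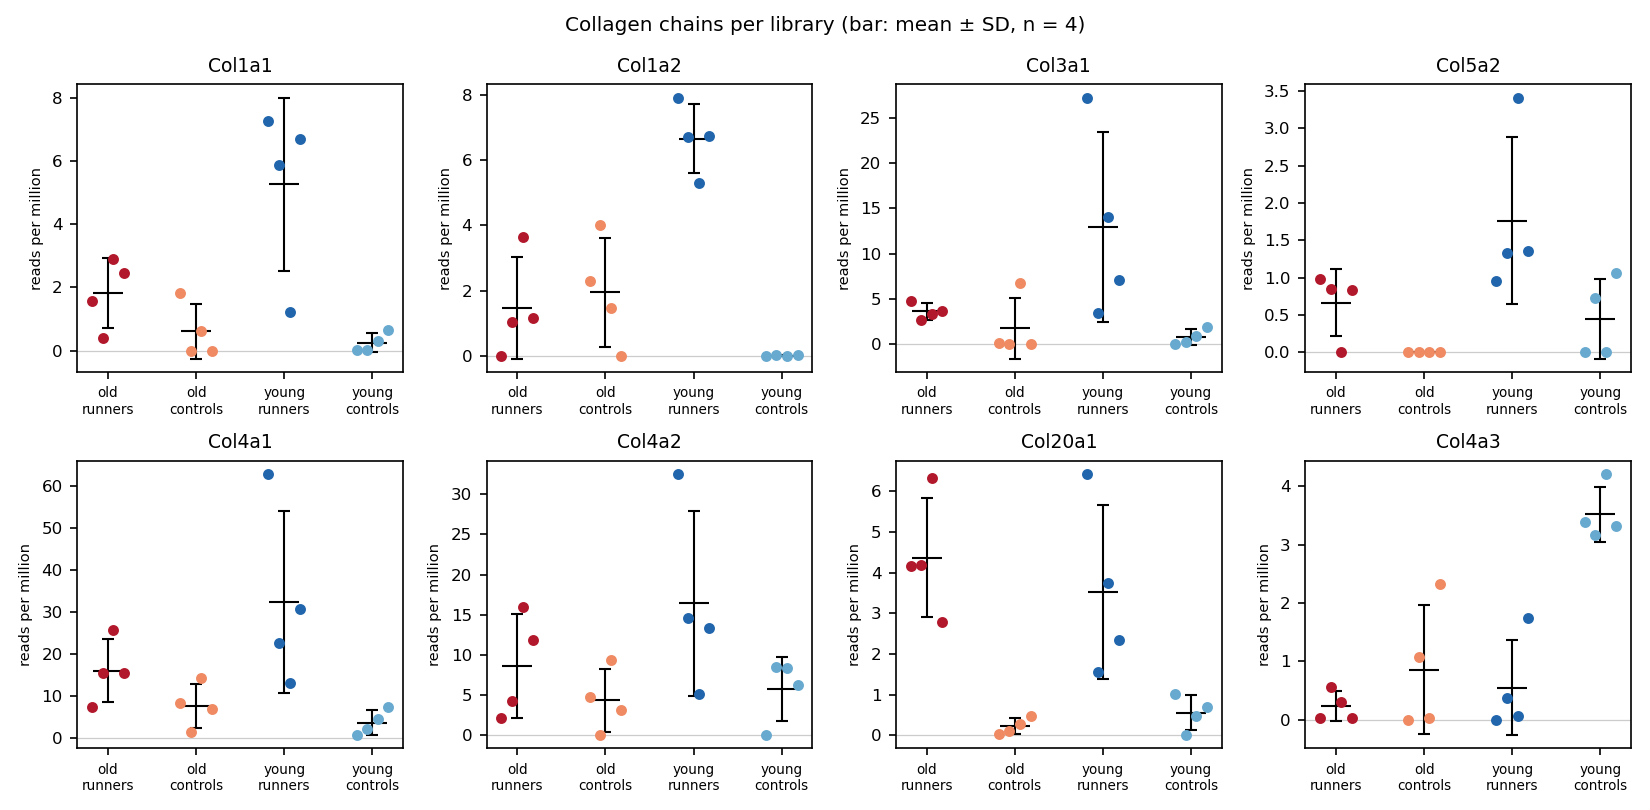
RPM of 8 collagen chains in each library, by group, with mean and SD (n = 4). In Col1a1, Col1a2, Col3a1, Col4a1 and Col20a1 the young runners lie above the young controls. In Col20a1 the old runners (2.78 to 6.33) also lie above the old controls (0.0212 to 0.477). Col4a3 is highest in young controls.

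Col20a1, a fibril-associated chain, was the 1 tested chain whose runner and control libraries were apart at both ages. It had 4.17, 4.18, 6.33 and 2.78 RPM in old runners, against 0.0212, 0.116, 0.276 and 0.477 in old controls. In reads these were 128, 282, 339 and 130, against 1, 6, 10 and 18, and the mean in RPM was 19.6-fold higher. The difference of 1.08 (SE 0.17, limma, adjusted p = 0.0491) was the 1 call among the 6 chains tested in old mice, beside 0.128% of all genes called there, or 0.0746% called higher. The call lies close to the threshold. It held without the control Oc1 (adjusted p = 0.0207) and was lost without Oc2 (0.108), Oc3 (0.109) and Oc4 (0.0847), and without any 1 runner library Col20a1 fell below the filter.

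In young mice Col20a1 had 6.42, 1.56, 3.75 and 2.35 RPM in runners, against 1.02, 0, 0.473 and 0.701 in controls. Each runner exceeded each control, and the mean was 6.42-fold higher. The difference of 1.06 (SE 0.3) was not called (limma, adjusted p = 0.115). Across the tested chains, 5 of 16 in young mice were higher in every runner than in every control, namely Col1a1, Col1a2, Col3a1, Col4a1 and Col20a1, beside 5.71% of all genes. Col4a3 alone was lower throughout, beside 5.77%. In old mice Col20a1 was the 1 such chain of 6, beside 4.86%. Col1a1, Col1a2 and Col20a1 passed the filter in young mice through the runner libraries alone, as did Col20a1 in old mice. A chain that enters so is high in runners by selection, and these counts are a description only.

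The gene lies at chr2:180986535-181018363 on the plus strand (mm10, GENCODE M21) and shares exonic bases with the predicted gene BX649560.1, and without strand their reads cannot be told apart. Its start window, chr2:180986285-180986584 (RefSeq, GRCm38.p6), is shown as a contrast with the type IV pair. It has 50% G and C and holds none of the 3 motifs named above on either strand, so it has no capitals.
Col20a1: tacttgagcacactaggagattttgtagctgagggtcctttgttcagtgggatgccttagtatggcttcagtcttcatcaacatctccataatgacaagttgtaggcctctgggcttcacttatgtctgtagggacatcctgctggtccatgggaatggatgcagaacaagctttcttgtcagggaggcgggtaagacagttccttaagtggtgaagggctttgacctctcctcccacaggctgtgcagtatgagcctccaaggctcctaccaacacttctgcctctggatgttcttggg

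Type VI collagen forms beaded microfibrils next to the myofiber basement membrane, from Col6a1, Col6a2 and another chain such as Col6a3. Col6a1 had 3.16, 0.0148, 3.79 and 1.65 RPM in old runners, against no read in any old control. Its mean was 124-fold higher when the controls are set at 3 reads over the group. That floor covers counting error and not the spread between libraries, and Col6a1 was below the filter in old mice and not tested. In young mice it had 5.77, 4.21, 0 and 4.5 in runners, against 4.22, 0.841, 0 and 0.606 in controls. The age groups thus differed in their controls: old controls had no reads and young controls had some. Col6a2 had 0.652, 0, 2.72 and 1.44 in old runners, against 0, 0.0194, 1.11 and 0 in old controls, and 1.9, 2.81, 3.81 and 1.09 in young runners, against 3.25, 0.0391, 0 and 0 in young controls. Its young difference was 0.96 (SE 0.38, limma, adjusted p = 0.234), with 1 high control library. Col6a3 had reads in 6 libraries, with 0.717, 0, 0 and 0 in old runners, against 0 in all old controls, and 3.49, 0, 0.269 and 0.413 in young runners, against 0.0226, 0.743, 0 and 0 in young controls.

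Col22a1, which marks the fibre end at the tendon junction, was among the most abundant chains and did not separate the groups. It had 4.76, 21.7, 23.9 and 18.4 RPM in old runners, against 17.1, 14.6, 8.79 and 8.82 in old controls. In young mice it had 26.0, 24.4, 3.52 and 26.0 in runners, against 0.0677, 35.3, 34.9 and 26.1 in controls. Each group except old controls held 1 library far below its fellows, and the young control Yc4 had 3 reads where the other young controls had at least 1378. Col13a1, a transmembrane chain of the neuromuscular junction, had 0.163, 1.81, 1.27 and 0.9 in old runners, against 0, 0.136, 0.194 and 0.106 in old controls. In young mice it had 1.23, 0.778, 0 and 0.63 in runners, against 1.44, 0.567, 0.784 and 0.417 in controls. Old controls were the low group, overlapping the lowest old runner.

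The multiplexins Col15a1 and Col18a1, which link basement membranes to the matrix outside, were low. Col15a1 had 0, 0.0742, 0.485 and 0.214 RPM in old runners, against 0, 0.0388, 0.0276 and 0.768 in old controls, and 1.92, 0.0948, 0 and 0.348 in young runners, against 0, 0.0978, 0.0163 and 0.341 in young controls. Col18a1 had 0, 0.86, 0.523 and 0.386 in old runners, against 0, 0, 0 and 0.53 in old controls, and 3.32, 0.152, 0.404 and 1.78 in young runners, against 0.0226, 0, 0.392 and 1.42 in young controls. All 4 pairs of groups overlapped. Of the other chains, Col7a1 of anchoring fibrils and the fibril-associated Col9a1 reached 7.48 and 6.66 RPM, and Col12a1, Col16a1, Col19a1, Col23a1 and Col8a1 reached 1.98, 1.27, 6.02, 3.95 and 3.01. None of these was called in any comparison. The other 8 chains, Col6a5, Col6a6, Col8a2, Col9a2, Col9a3, Col10a1, Col17a1 and Col28a1, each had reads in at most 3 libraries, and Col26a1 had reads in 6 and at most 0.343 RPM.

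A joint model of all 16 libraries, limma with voom on the reads recovered from the deposited values, gave the effect of running averaged over both ages. It tested the 27 chains with at least 10 reads in at least 4 libraries, and not Col4a4, Col4a5, Col4a6, Col26a1 or the 8 sparse chains above. Of the 27, 6 were called higher in runners, beside 2.89% of all 14358 genes, and none was called lower, beside 2.72%. Called or not, 22 of the 27 had a positive difference. The log2 differences were 4.27 for Col20a1 (SE 0.79, adjusted p = 0.0094), 2.53 for Col4a1 (SE 0.56, 0.02), 5.34 for Col3a1 (SE 1.28, 0.0291), 4.49 for Col1a1 (SE 1.08, 0.0292), 4.39 for Col5a2 (SE 1.22, 0.0472) and 4.26 for Col1a2 (SE 1.2, 0.0499). Chains with libraries at 0 have differences here that depend on the small count voom adds, so their size is not a bound. The 6 called chains are 4 fibrillar, 1 basement membrane and 1 fibril-associated chain, and the means of all but Col1a2 were higher in runners at both ages.

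**Figure D4:**
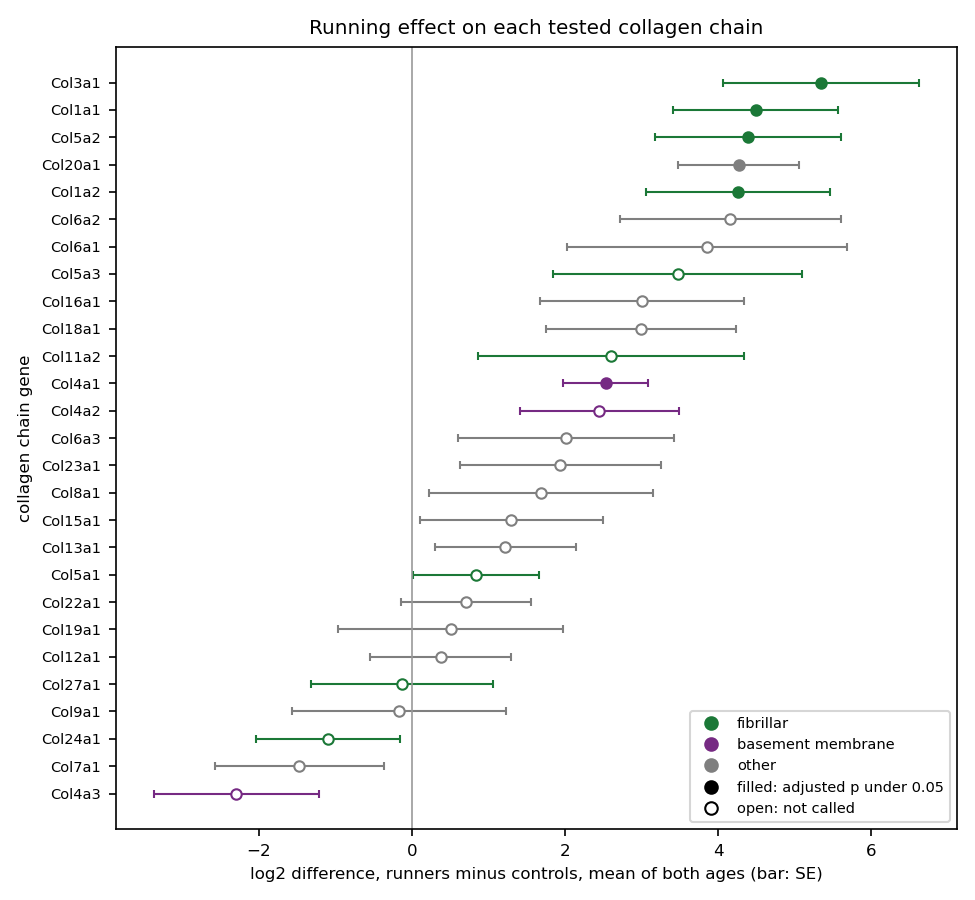
Log2 difference of runners minus controls, averaged over both ages, for the 27 tested collagen chains, with SE, from the joint model of 16 libraries. Filled points passed an adjusted p of 0.05, and all 6 of them lie right of 0, with Col20a1 at 4.27 and Col4a1 at 2.53 carrying the shortest bars among them.

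Col20a1 and Col4a1 kept their calls in this model without each single library. Col1a1 lost its call without O4ex, Oc2, Oc4 or Y2ex, with adjusted p of 0.059, 0.0683, 0.054 and 0.0552, and Col3a1 without O4ex, Oc2 or Oc4, with 0.0515, 0.0687 and 0.0532. Col1a2 kept its call without O1ex, Oc1, Oc2 or Oc4 and lost it without each of the other 12 libraries, with 0.0573 to 0.1. Col5a2 kept it without O3ex, Yc5 or Yc8 and lost it without each of the other 13, with 0.0534 to 0.0956. Across genes, differences between runners and controls went with exon length (Spearman's rho 0.339 in old and 0.122 in young mice and 0.248 averaged, genes not being independent), and chains have a median exon length of 7021 bases, beside 3069 for all genes. With that trend removed, Col20a1, Col4a1, Col1a1 and Col3a1 kept their calls in the joint model, and Col1a2 (limma, adjusted p = 0.0674) and Col5a2 (0.0642) lost theirs. In the separate tables Col1a2 (0.00499) and Col4a1 (0.0457) kept their calls in young mice, and Col20a1 (0.109) lost its call in old mice.

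Whether running acted differently with age was tested by the interaction in the same model. No chain of 27 was called, and neither was any of the 14358 genes. An unadjusted p under 0.05 was reached by 3 of the 27 chains, beside 1050 genes (7.31%). A limma fit without the filter on low values called 7 genes. Among the chains, Col1a2 had the smallest p, with a running effect lower in old than in young mice by a log2 difference of -8.54 (SE 2.41, limma, adjusted p = 0.488). Col13a1 (4.84, SE 1.84, adjusted p = 0.626) and Col27a1 (5.27, SE 2.38, adjusted p = 0.671) had positive differences, and neither was called. For Col20a1 the interaction was 1.27 (SE 1.57, limma, adjusted p = 0.899) and for Col4a1 -1.71 (SE 1.12, adjusted p = 0.768). For Col3a1 (0.26) and Col5a2 (0.45) the sign of the interaction turned under some alternatives, so no direction is read from it. Errors of this size leave an age difference in the running effect on single chains not detectable here, and a p above the threshold does not show that the effects were alike.

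Age itself gave no call. Between old and young runners 0 of 11 tested chains were called by limma, beside 0.0213% of all genes. An unadjusted p under 0.05 was reached by 3 of the 11 chains, beside 461 of 9387 genes (4.91%). Col1a2 was lower in every old runner, at 0, 1.05, 3.66 and 1.16 RPM, than in any young runner, at 7.92, 6.7, 5.3 and 6.74, as were 1.54% of all genes. The difference was -0.98 (SE 0.23, limma, adjusted p = 0.409). Col3a1 at -0.79 (SE 0.31) and Col1a1 at -0.55 (SE 0.23) had the same sign with an adjusted p of 0.982 each. Without a filter, 9 of 36 chains had a higher mean in old than in young runners, or 25.0%, beside 47.2% of all genes, with 1 of 9 fibrillar and 0 of 6 basement membrane chains among them.

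Between old and young controls 0 of 8 tested chains were called, beside 0.112% of all genes. An unadjusted p under 0.05 was reached by 1 of the 8 chains, beside 11.2% of all genes. Col4a3 was lower in each old control than in any young control, as were 2.84% of all genes, with a difference of -0.84 (SE 0.26, limma, adjusted p = 0.274). Without a filter 10 of 36 chains had the higher mean in old controls, or 27.8%, beside 39.5% of all genes. Averaged over running and control groups, none of 27 chains was called by limma with voom, beside 0.411% of all genes. In that fit 2 of the 27 chains had an unadjusted p under 0.05, beside 10.6% of all genes. Col12a1 had the smallest p there (-2.61, SE 0.92, adjusted p = 0.298), followed by Col5a2 (-2.75, SE 1.22, adjusted p = 0.435). Each pair of ages shares its libraries with the running comparisons.

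Genes that act on collagen were counted from lists of its makers, binders, degraders and receptors. In young mice 7 of the 46 tested were called, all higher in runners, beside 0.282% of all genes called higher. Dcn, decorin, a proteoglycan that coats fibrils, had 68.2, 30.0, 29.5 and 28.9 RPM in young runners, against 0.0226, 4.5, 0.261 and 2.22 in young controls (3.25, SE 0.4, limma, adjusted p = 0.019). Mmp14 and Mmp2, a membrane protease and the gelatinase it activates, differed by 1.29 (SE 0.2) and 1.82 (SE 0.34), and Mmp14 had no read in any young control. Mmp14 thus passed the filter through the runner libraries alone. A gene that enters so is high in runners by selection, and the count of calls is a description only. Sparc, a collagen-binding chaperone of the matrix, differed by 1.23 (SE 0.22), Ltbp4 of the latent TGF-beta complex by 2.04 (SE 0.38), the fibrillar collagen receptor Ddr2 by 1.37 (SE 0.26) and the disulphide isomerase Pdia3 by 0.82 (SE 0.16). The fibro-adipogenic marker Gsn differed by 3.39 (SE 0.46). By list these were 2 of 4 tested fibril-binding, 2 of 8 degradation, 2 of 9 folding and export and 1 of 4 receptor genes. None of 11 tested hydroxylation, 3 cross-linking and 7 basement membrane partner genes was called. Each of these 8 genes lost its call in at least 3 of its alternatives. Those in which the gene could be tested were 10 for Mmp14, Mmp2 and Ddr2 and 15 for the others. In old mice no gene of these lists was called.

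In the joint model 12 of 75 tested list genes were called, all higher in runners, beside 2.89% of all genes. Mmp3, the protease stromelysin, had 2.51, 4.11, 11.2 and 0.793 RPM in old runners, against no read in all 4 old controls, and 3.54, 2.37, 1.35 and 0.935 in young runners, against no read in all 4 young controls (7.97, SE 0.91, limma with voom, adjusted p = 0.000796). It was read in every runner and in no control. Mmp3 thus passed the filter through runners alone and is high in them by selection. Its difference depends on the small count voom adds, so the size is not a bound. Dcn (4.25, SE 0.7), Mmp2 (5.91, SE 1.11), Pdia3 (0.49, SE 0.09), Ddr2 (3.91, SE 0.8), Postn (5.56, SE 1.15), Sparc (0.81, SE 0.18) and the marker Gsn (3.35, SE 0.62) followed, with adjusted p from 0.00574 to 0.019. Of these, Mmp3, Dcn, Mmp2, Ddr2, Postn, Sparc and Gsn kept their calls under all 21 alternatives, and Pdia3 under 20. The others called, named after their values were seen, were P4ha1, Sec23a, Creb3l1, Fbln2 and Ltbp4. Creb3l1 and Ltbp4 kept their calls under all 21 alternatives, while Fbln2 lost its call in 18, P4ha1 in 14 and Sec23a in 7. Nid1, the basement membrane linker nidogen, had the smallest p of the basement membrane partners (4.4, SE 1.4, adjusted p = 0.0749), and none of the 10 tested was called. The cross-linking list had no call in any comparison, with Loxl4 at the smallest p, in the interaction (6.6, SE 2.07, adjusted p = 0.505).

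Marker genes of other cells were also called higher in runners in the joint model. These were Dcn and Gsn of 10 tested fibro-adipogenic, Tnmd of 7 tenocyte, Acta2 of 8 mural, Mbp of 5 Schwann cell and Lyz2 of 3 immune markers, beside 2.89% of all genes called higher. Dcn and Gsn kept their calls under all 21 alternatives. Mbp lost its call in 17 of 21, Tnmd in 14 of 20, Lyz2 in 10 of 21 and Acta2 in 6 of 21. Called or not, the markers higher in runners were 9 of 10 fibro-adipogenic, 6 of 7 tenocyte and 8 of 8 mural. For Schwann cell and immune markers they were 3 of 5 and 3 of 3, beside 54.6% of all genes. Of lists without a call, 9 of 10 endothelial, 2 of 6 myofibre and 2 of 4 satellite cell markers were higher there. The summed RPM of the tenocyte, Schwann cell and immune lists overlapped between runners and controls at both ages. For Schwann cells it was 53.8 to 141 in old runners, against 139 to 253 in old controls, and 123 to 254 in young runners, against 87.1 to 189 in young controls. Egr2 made up 92.8% of that sum. None of 10 endothelial, 6 myofibre and 4 satellite cell markers was called, with Sox17 (1.34 in young mice, adjusted p = 0.0763), Atp2a1 (0.41 in the joint model, adjusted p = 0.0614) and Myf5 (-0.64 in young mice, adjusted p = 0.238) at the smallest p of their lists over all comparisons. Mbp was the 1 marker called for age, at 3.64 (SE 0.6, limma with voom, adjusted p = 0.0119). These markers and the collagen chains came from the same libraries, and the part of either in the other was not tested.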

How the data were processed

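RNA of the EDL myofibers (10 ng per library) was amplified with a SMART-Seq v4 kit and sequenced without strand information, per the labels' protocols. Per the submitters' processing notes, the authors used Trim Galore, STAR, the featureCounts program of Subread and DESeq2 with the mm10 build. No version or gene annotation is given in the sources used here. What the authors deposited are log2 values from a variance-stabilising transformation, made separately for each of 4 pairs of groups. Genes without reads sit at a floor (6.73 to 7.69) and differences between low genes are compressed.

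Inverting the transformation gave whole reads for 100% of values within 0.02 (largest distance 0.0164), and 307356 values present in more than one table gave 0 unequal reads. Levels in RPM divide reads by the sum of all recovered reads of a library. Exon lengths and positions come from GENCODE M21, which held 95.6% of symbols. Of 39 chains, 12 share exonic bases with another annotated gene, and without strand such reads cannot be told apart. No molecular identifiers were used to collapse PCR copies, so a read is not an independent molecule.

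Pairs of groups were compared on the deposited values with limma 3.58.1 in R 4.3.3 (variance trend, 2-sided). A gene was kept when 4 or more libraries lay 1 or more above the floor. All 16 libraries were fitted together with limma's voom on recovered reads, for genes with 10 or more reads in 4 or more libraries and median-of-ratios size factors. Benjamini-Hochberg adjustment ran over every gene of a fit, and 0.05 was the threshold. Python 3.11.15 read the tables. The scripts were tested on simulated data.

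The members, lists, tests and alternatives were chosen with earlier results of these data known. Named are the chains called in any comparison, 14 main chains, called list genes (up to 8 per comparison by smallest p), and otherwise the gene of a list with the smallest p. Col4a3, Col24a1, Col27a1 and Col12a1 were named after their values were seen. Column names equal sample titles for 6 runners, and the other columns were matched to their group only. The numbers 1 to 3 shared by runner titles are not said to mark a litter or day, so they are not taken to pair the libraries. Alternatives were other filters, centring or quantile normalisation, other models, a replicate block, removal of each library and, added after seeing the data, removal of a trend on exon length (lowess span 0.3), of each library from class sums, and the 6 numbered runners without the block.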

Additional observations from a re-analysis of the deposited data

Results flagged for a closer look

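The level of 1 library stood apart from the other 3 of its group by Dixon's criterion in 12 of 75 groups examined, which were the 16 chains with values per library and the class sums. Chance flags about 1 in 20 groups. Many groups hold several libraries at or near 0, where a single library with reads meets the criterion.

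High libraries made up most of these. Among old controls, Col3a1 stood at 6.75 RPM and Col6a2 at 1.11 in Oc3, Col15a1 at 0.768 and Col18a1 at 0.53 in Oc4, and the fibrillar sum at 34.0 in Oc1, where the next library had 9.26. In old runners Col6a3 stood at 0.717 in O1ex, with 0 in the others. In young runners Col5a2 stood at 3.41 in Y3ex and Col6a3 at 3.49 in Y1ex. In young controls Col6a2 stood at 3.25 in Yc4 and Col6a3 at 0.743 in Yc5.

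Low libraries were fewer. Col5a2 was at 0 in the old runner O3ex, with 0.835 as the next value, and Col22a1 was at 3.52 in the young runner Y3ex, where the next library had 24.4.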

How the results depend on the processing

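In the joint model Col20a1 and Col4a1 were called for running under all 21 alternatives, Col1a1 and Col3a1 under 17 each and Col1a2 and Col5a2 under 6 each. In that model 3 chains were called with a filter of 50 reads and 2 to 5 without single libraries. On log2 of RPM plus 1 the difference of Col20a1 was 1.82 and that of Col5a2 0.83, since that scale compresses low values. The interaction of Col3a1, 0.26 as reported, was -1.38 on log2 of RPM plus 1, -1.3 on the deposited values with a term for the table, -0.06 with the exon-length trend removed and -0.75 to 2.32 without single libraries. That of Col5a2, 0.45 as reported, was -0.25 on log2 of RPM plus 1 and -0.74 to 2.2 without single libraries. No other chain or list gene that was refitted changed sign. Chains given as levels only, among them Col5a1, Col6a1, Col6a3, Col15a1, Col22a1 and Col24a1, were not refitted one by one.

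In old mice 0 chains were called without a filter, with a filter of 2 above the floor, after quantile normalisation, with voom and with the exon-length trend removed, and 0 to 1 without single libraries. All genes called there, 12 in the reported fit, were 7, 27, 24, 3 and 2 under these 5 settings, 23 after median centring and 1 to 295 without single libraries. In young mice 1 chain was called without a filter and with voom, 4 chains (Col1a1, Col1a2, Col3a1 and Col4a1) after median centring or quantile normalisation, 1 with eBayes without trend, and 0 to 2 without single libraries. A value of 0 there, and in old mice without a runner, arose partly because Col1a2 and Col20a1 then fell below the filter. All genes called in young mice, 81 in the reported fit, were 24 without a filter, 143 after median centring, 228 after quantile normalisation, 47 with eBayes without trend, 7 with voom and 0 to 181 without single libraries, where 181 came without Yc4 and each other library left 25 or fewer. Beyond this the cause of the changes was not tested.

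Between controls of both ages 11 genes were called, 3 without a filter, 28 after quantile normalisation, 3 with voom and 3 to 52 without single libraries. Between old and young runners 2 genes were called, 0 to 3 without single libraries. A paired fit with the replicate block on the 6 numbered runners gave 0 genes and 0 chains, as did the same 6 libraries without the block. Same-numbered libraries deviated from their group means with correlations of -0.372, 0.17 and -0.338 across genes. With so few libraries per group this cannot show whether they shared a litter, cage or day. The interaction gave 7 genes without a filter and 0 without single libraries. In the joint model 805 genes were called for running and 59 for age, with 304 to 1087 and 27 to 125 without single libraries. No chain was called for age or the interaction under any alternative. 

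The log2 ratio of fibrillar sums in old mice was 0.04 with normalised reads and -0.31 to 0.92 without single libraries. The same range was 0.58 to 1.43 for basement membrane and 0.36 to 1.0 for other chains in old mice, and 1.52 to 2.04, 1.36 to 2.18 and -0.18 to 0.42 for fibrillar, basement membrane and other chains in young mice. Depth limits the 10 chains under 100 reads, of which 0 entered a test, so that their values are described only.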
